A study of Amphiprion ocellaris with 30 samples.

Results

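The genes described here were chosen by their values: they had a lower mean in clownfish larvae treated with SR9243 and in larvae treated with T3 than in DMSO larvae. The rule took genes whose SR9243 mean and whose T3 mean were both at least 0.8 below the DMSO mean, on the authors' variance-stabilised log2 scale. The 200 genes with the highest mean over all 30 libraries were left out. It chose 191 of the 22816 genes in the table, or 0.837%. RNA was sequenced from entire wild-type (WT) larvae of Amphiprion ocellaris, an anemonefish. The larvae were held at 27 °C in sea water in beakers and taken 5 days post treatment. The 3 groups were SR9243 at 1e-07 M, T3 at 1e-07 M and the solvent DMSO at 0.0001 %, with 10 libraries each, numbered 1 to 10 by their titles. T3 titles include an unexplained tag, IOP, and T3 columns are headed TH, read here as thyroid hormone. No DMSO concentration is given for the SR9243 and T3 larvae. The labels do not say whether a library is 1 larva, or from which beaker or clutch it came. Every p-value below therefore sets a difference of means against the spread between these libraries.

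T3 (triiodothyronine) is the active thyroid hormone. It enters cells and binds thyroid hormone receptors, nuclear receptors that sit on DNA and raise or lower the transcription of their target genes. In fish and amphibians it drives metamorphosis, the change from larva to juvenile, during which larval genes are turned down as well as juvenile genes turned up. LXR, the liver X receptor, belongs to the same superfamily of nuclear receptors, forms dimers with the same partner, RXR, and is activated by oxidised cholesterol. In mammals it controls genes of cholesterol efflux and of fatty acid synthesis. SR9243, a synthetic ligand, is named an LXR antagonist in the series title. In mammalian cells it is known for lowering the activity of LXR on genes of lipid synthesis and glycolysis.

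The files name genes by Ensembl ID alone. The reference gene table used here lists none of that kind, and matched 0 of the 22816 genes. No role in any tissue, no sequence and no position is therefore given for a member, and lists of pathway or cell type genes could not be applied. The tissue label could not be checked against marker genes for the same reason. A value on the variance-stabilised scale is close to the log2 of the normalised count where expression is high, and is compressed near the lowest value of 2.88, which all libraries share and which was read as a count of 0. A difference is given on this scale, as the first group's mean minus the second's, and is not turned into a fold. The larvae were sequenced whole, so fewer cells of a type and less RNA per cell cannot be told apart.

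The values that chose the members were spread widely. SR9243 minus DMSO had a median of -1.08 over the 191 genes and ran from -4.94 to -0.80. T3 minus DMSO had a median of -1.61 and ran from -7.95 to -0.81. Over all 22615 genes tested, the medians were -0.0075 and -0.0149. Taken alone, the threshold was passed by 318 genes for SR9243 and by 821 for T3, so the members were 60.1% of the first list and 23.3% of the second. Both comparisons use the same 10 DMSO libraries, and a gene whose DMSO mean happens to be high gains in both at once. The number of genes past both thresholds is therefore not a measure of a shared response.

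At the median, the members lay closer to the threshold for SR9243 than for T3. SR9243 minus DMSO was at or below -1 in 115 members, at or below -2 in 17 and at or below -3 in 6. For T3 minus DMSO the counts were 160, 57 and 17. Both differences were at or below -2 in 11 members and at or below -3 in 5. In those 5 genes the means ran from 3.45 to 6.95 in SR9243 larvae and from 3.06 to 5.58 in T3 larvae, against 6.51 to 11.7 in DMSO larvae. The standard error (SE) of a difference was 0.21 at the median member and ran from 0.0946 to 0.851. The gene just inside the SR9243 threshold stood at -0.80 for SR9243 and -0.96 for T3, and the gene just outside it stood at -0.80 and -1.07. The threshold thus separates genes that differ by far less than 1 SE.

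**Figure D1:**
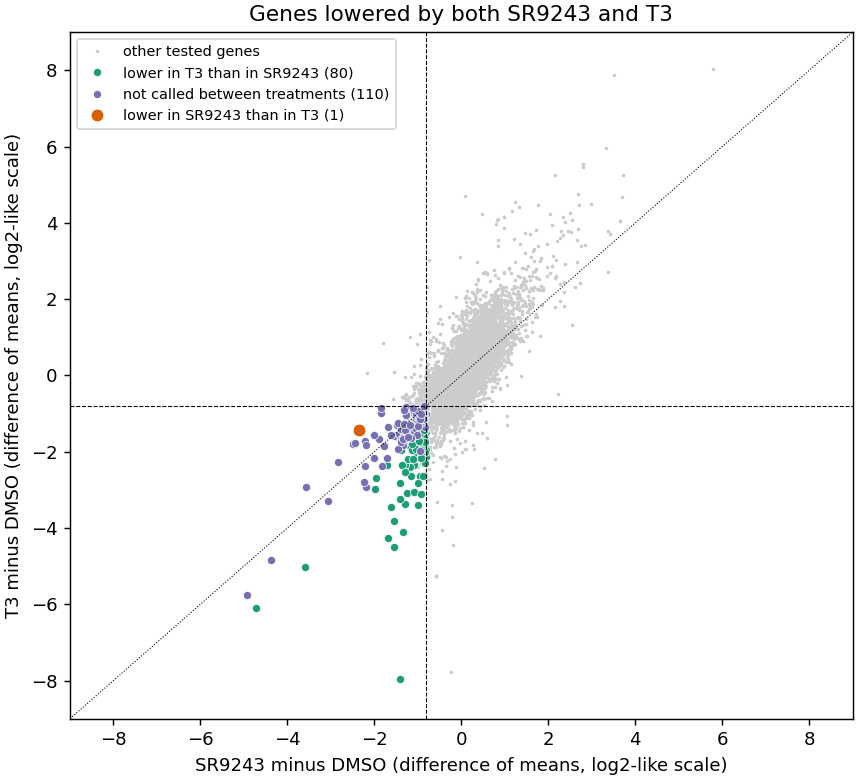
Each point is 1 tested gene, with its SR9243 minus DMSO difference on one axis and its T3 minus DMSO difference on the other, both in variance-stabilised log2 units. Grey points are the genes outside the set and coloured points are the 191 members, coloured by their call between SR9243 and T3; most members lie below the dotted line of equal differences, where T3 is the lower of the 2 treated groups, dashed lines mark -0.8, and a few reach -4 or less on both axes.

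The members were expressed at a range of levels. In SR9243 larvae the group mean had a median of 6.51 over the members and ran from 2.99 to 11.8. In T3 larvae the median was 5.92, with a range of 2.88 to 11.3. In DMSO larvae the median was 7.92, with a range of 3.83 to 12.7, against a median of 6.85 over all genes tested. When all tested genes were ranked by their DMSO mean and divided into 3 equal classes, 33 members fell in the lowest class (17.3%), 53 in the middle class (27.7%) and 105 in the highest class (55.0%). The scale is compressed at low values, so a lowly expressed gene needs a larger proportional change in counts to pass the threshold of 0.8.

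Some members were near the floor of the measurement in treated larvae. Of the 191 genes, between 4 and 12 were at the lowest value in an SR9243 library (median 8.5), between 11 and 17 in a T3 library (median 15) and between 0 and 3 in a DMSO library (median 1). In 29 members the lowest value occurred in treated larvae and in no DMSO library. In 152 members (79.6%) every library was above it, against 90.9% of all tested genes. In 1 member all 10 T3 libraries were at this lowest value. This gene ranged from 2.88 to 3.98 in SR9243 larvae, with 6 libraries at the lowest value, against a lowest of 2.88, a median of 4.66 and a highest of 5.66 in DMSO larvae. Its differences from DMSO on this compressed scale were -1.39 for SR9243 and -1.75 for T3.

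The pair of members with the lowest mean of both differences carried the IDs ENSAOCG00000013714 and ENSAOCG00000024738. ENSAOCG00000013714 had a lowest value of 5.92, a median of 6.79 and a highest of 9.63 in SR9243 larvae, of 5.05, 5.45 and 6.17 in T3 larvae, and of 8.40, 12.2 and 13.0 in DMSO larvae. It was among the more highly expressed members in DMSO larvae and moderate to low in both treated groups. The ranges of SR9243 and DMSO overlapped through SR9243 library 3, at 9.63, which lay above DMSO libraries 8 and 10, at 8.40 and 9.44. The next SR9243 library was at 7.20. The means were 6.95 ± 1.01 in SR9243 larvae and 5.58 ± 0.427 in T3 larvae, against 11.7 ± 1.52 in DMSO larvae (SD, n = 10 each). The differences from DMSO were -4.71 for SR9243 and -6.08 for T3, each with an SE of 0.449. Between the 2 treatments it was 1.37 higher in SR9243 larvae (SE 0.449; limma, adjusted p = 0.0177). In libraries 6 to 10 alone this difference was 1.07 and was not called (limma, adjusted p = 0.330).

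ENSAOCG00000024738 approached the lowest value in both treated groups. It had a lowest value of 2.88, a median of 3.79 and a highest of 7.37 in SR9243 larvae, of 2.88, 3.14 and 3.86 in T3 larvae, and of 6.11, 9.53 and 10.5 in DMSO larvae. SR9243 library 3 was again the highest of its group and the one that overlapped the DMSO range; the next SR9243 library was at 4.55. The gene was at the lowest value in 1 SR9243 and 5 T3 libraries. The means were 4.11 ± 1.23 in SR9243 and 3.29 ± 0.447 in T3 larvae, against 9.05 ± 1.34 in DMSO larvae (SD, n = 10 each), which gave differences of -4.94 and -5.76 from DMSO. The difference between SR9243 and T3 was 0.82 (SE 0.449; limma, adjusted p = 0.158) and did not pass the test. Without SR9243 library 3 it was 0.46 (limma, adjusted p = 0.367).

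**Figure D2:**
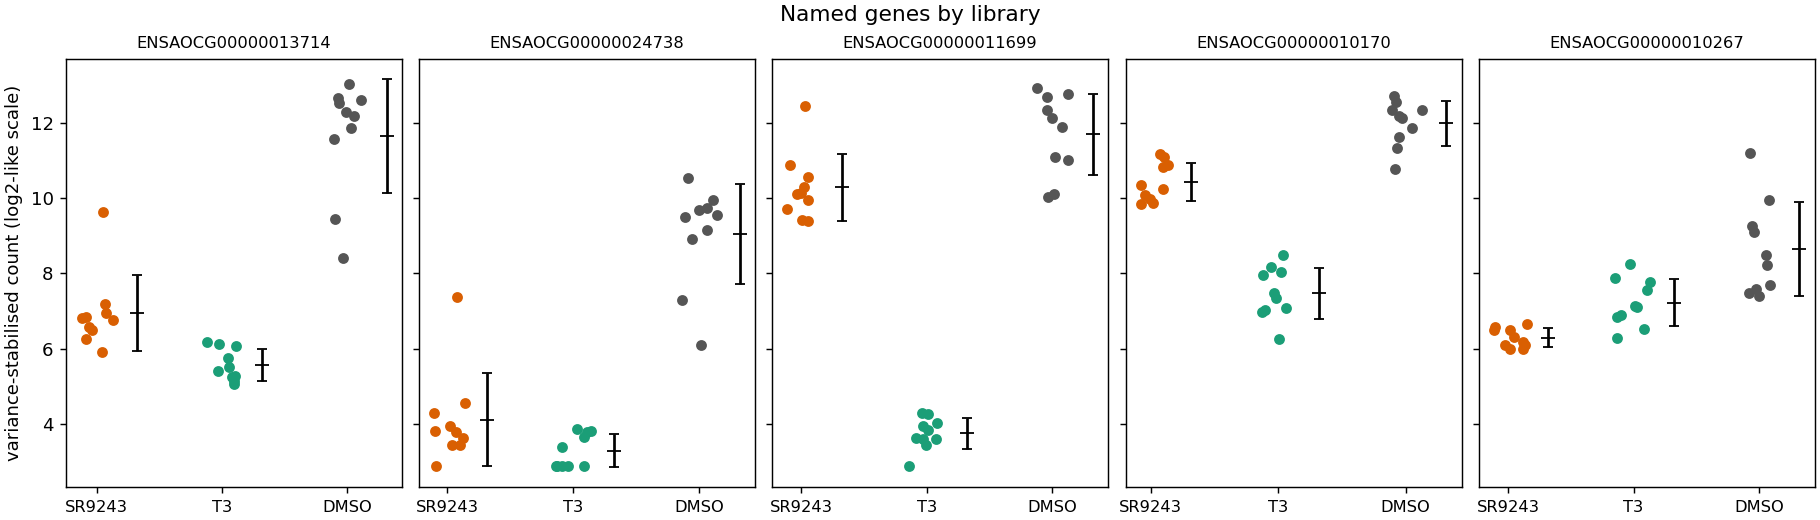
Variance-stabilised log2 values of the 5 members given by ID, with 1 point per library in SR9243, T3 and DMSO larvae and the mean with its SD to the right of each group. The T3 points of ENSAOCG00000011699 lie between 2.88 and 4.29, below every SR9243 point, and SR9243 library 3 is the highest SR9243 point in all genes but ENSAOCG00000010267.

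Whether the members were lowered to the same level by both treatments was asked by comparing SR9243 with T3 directly. This contrast is the difference between the 2 values on which the rule set its thresholds. The rule did not fix its sign, but more genes passed the threshold for T3 than for SR9243, as given above. All tested genes were not put through this cut, so they are no matched baseline. The counts describe the set and are no independent evidence. The mean was lower in T3 larvae than in SR9243 larvae in 150 of the 191 genes (78.5%) and higher in 41, against 50.5% lower over all tested genes. SR9243 minus T3 had a median of 0.36 and ran from -1.0 to 6.55, against a median of 0.0034 over all tested genes. In 66 members (34.6%) the 2 treated means lay within 0.25 of each other. In 43 members (22.5%) the T3 difference from DMSO was at least 2 times the SR9243 difference, and the reverse held in 1. The same shares over all tested genes were not counted, so nothing is read from the counts of 66, 43 and 1.

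After Benjamini-Hochberg adjustment over all tested genes in limma, 80 members (41.9%) were called higher in SR9243 larvae, where 17.1% of all tested genes were called in that direction. Only 1 member (0.524%) was called lower in SR9243 larvae, against a background of 17.5%. The other 110 members (57.6%) did not pass the test. At an unadjusted p under 0.05, the counts were 86 and 2, against 21.7% and 22.2% of all tested genes. All SR9243 libraries lay above all T3 libraries in 30 members (15.7%), against 2.81% of all tested genes. All tested genes were not chosen by the rule, so none of these shares is a matched baseline.

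The 80 members called lower in T3 larvae than in SR9243 larvae had median differences from DMSO of -1.02 for SR9243 and -2.13 for T3. SR9243 minus T3 had a median of 1.09 among them and ran from 0.35 to 6.55. Their DMSO mean had a median of 8.37. All T3 libraries lay below all DMSO libraries in 69 of them (86.2%; all tested genes 4.96%), and all SR9243 libraries did so in 22 (27.5%; 0.5%). The rule bounds both differences from DMSO, and a large difference between the treatments defines this class, so its SR9243 and T3 values are a description.

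The most separated of these was ENSAOCG00000011699. It had a lowest value of 9.40, a median of 10.1 and a highest of 12.5 in SR9243 larvae, of 2.88, 3.72 and 4.29 in T3 larvae, and of 10.0, 12.0 and 12.9 in DMSO larvae. It was highly expressed in DMSO larvae, close to the lowest value in every T3 library, and well above the T3 range in every SR9243 library. The means were 10.3 ± 0.891 in SR9243 and 3.75 ± 0.418 in T3 larvae, against 11.7 ± 1.07 in DMSO larvae (SD, n = 10 each). The differences from DMSO were -1.41 for SR9243 and -7.95 for T3. SR9243 minus T3 was 6.55 (SE 0.349; limma, adjusted p = 3.5e-15). The SR9243 and DMSO ranges overlapped.

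ENSAOCG00000010170 had the same order of groups with a smaller gap. Its lowest, median and highest values were 9.85, 10.3 and 11.2 in SR9243 larvae, 6.26, 7.40 and 8.49 in T3 larvae, and 10.8, 12.2 and 12.7 in DMSO larvae. The T3 values lay below all others, and the SR9243 values reached only into the low end of the DMSO range. SR9243 minus T3 was 2.96 (SE 0.250; limma, adjusted p = 1.25e-10), with differences from DMSO of -1.55 for SR9243 and -4.51 for T3.

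In 10 members (5.24%) the groups formed 3 steps without overlap: every T3 library lay below every SR9243 library, and every SR9243 library below every DMSO library. Of all tested genes, 0.0796% had these steps, and nothing is read from the count, since the rule used both comparisons with DMSO. Their SR9243 differences from DMSO ran from -1.61 to -0.82 (median -1.08) and their T3 differences from -3.82 to -1.75 (median -2.54). SR9243 minus T3 ran from 0.76 to 2.27 in them, with a median of 1.50. Their SDs within the DMSO group ran from 0.197 to 0.559 (median 0.366), where groups that do not overlap favour a small spread.

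The member called lower in SR9243 larvae than in T3 larvae was ENSAOCG00000010267. Its lowest, median and highest values were 5.98, 6.25 and 6.65 in SR9243 larvae, 6.29, 7.12 and 8.25 in T3 larvae, and 7.40, 8.37 and 11.2 in DMSO larvae. The SR9243 values were tight and all below the DMSO values, the T3 values lay between with overlap on both sides, and DMSO library 4 was the highest of its group. The means were 6.29 ± 0.250 in SR9243 and 7.22 ± 0.627 in T3 larvae, against 8.64 ± 1.25 in DMSO larvae (SD, n = 10 each). SR9243 minus T3 was -0.94 (SE 0.340; limma, adjusted p = 0.0315), and the differences from DMSO were -2.35 for SR9243 and -1.42 for T3. Without T3 library 5, 7 or 9 the difference was -0.88, -0.86 or -0.82. The adjusted p was then 0.0545, 0.0558 or 0.0656 (limma), so leaving out a single library could move the call across the threshold. With SR9243 and T3 libraries only, the adjusted p was 0.00047 (limma). In libraries 1 to 5 alone the difference was -0.61 and was not called (limma, adjusted p = 0.370). The member with the most negative value of this contrast, at -1.0, did not pass the test (95% interval -2.09 to 0.10; limma, adjusted p = 0.151).

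For the 110 members that did not pass the test, the 2 treated groups were close at the median gene, but equal levels were not shown. Their median differences from DMSO were -1.14 for SR9243 and -1.27 for T3, and SR9243 minus T3 had a median of 0.089 and ran from -1.0 to 1.03. The mean was lower in T3 larvae in 70 of them. The half-width of the 95% interval of SR9243 minus T3 was 0.468 at the median gene. The whole interval lay within 0.5 either side of 0 in 26 genes, within 1 in 82 (74.5%) and within 2 in 106. The SD within the DMSO group had a median of 0.728 in these genes and of 0.484 in the 80 called lower in T3. A wider DMSO group raises the SE of every contrast in this model. With SR9243 and T3 libraries only, 93 members were called higher in SR9243 larvae and 5 lower, against 80 and 1 with all libraries. The shares of all tested genes called in that smaller fit are not given, so nothing is read from this change. How far the DMSO spread accounts for the missing calls was not tested.

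**Figure D3:**
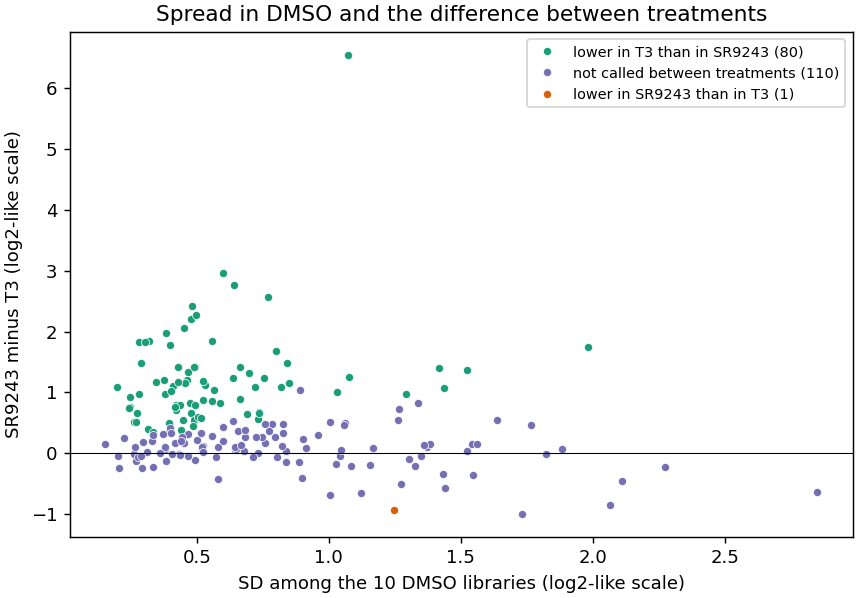
Each point is 1 of the 191 members, placed by its SD over the 10 DMSO libraries and by its SR9243 minus T3 difference, both in variance-stabilised log2 units, and coloured by the call between SR9243 and T3. Of the genes with a DMSO SD above 1, 36 were not called and 8 were called lower in T3 larvae.

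The size that chose the members also bears on their own comparisons with DMSO, which are given only as counts. The limma fit called 183 members lower in SR9243 larvae (95.8%), against a background of 14.1%, and 185 lower in T3 larvae (96.9%), against 25.8%. The rule used these contrasts, so nothing is read from the counts. In 181 members both comparisons were called, against 9.47% of all tested genes. The 10 others had a DMSO SD with a median of 1.43, against 0.558 in the members called in both. This SD enters the SE behind these calls, so nothing is read from that difference either. All SR9243 libraries lay below all DMSO libraries in 39 members (20.4%; background 0.5%), and all T3 libraries did so in 96 (50.3%; background 4.96%). Both separations held in 30 members (15.7%; background 0.314%), and neither held in 86 (45.0%; background 94.9%).

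The spread of the members was widest in DMSO larvae. The SD within a group had a median over the members of 0.392 in SR9243, 0.369 in T3 and 0.582 in DMSO larvae. Over all tested genes the medians were lower in each of the 3 groups, at 0.230, 0.216 and 0.287. The SD was above 1 in 8 members in SR9243 larvae (4.19%), in 12 in T3 larvae (6.28%) and in 45 in DMSO larvae (23.6%). In DMSO larvae 1.51% of all tested genes were that variable, and this share is given for DMSO larvae alone. DMSO was the widest of the 3 groups in 135 members (70.7%), against 58.2% of all tested genes. The choice favours genes whose DMSO mean is raised by single libraries, so a wide DMSO group is in part built into the set.

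The extremes show how unlike the members were. In the member with the widest DMSO group (SD 2.85), the DMSO libraries ran from 2.88 through a median of 6.37 to 10.8. The same gene ran from 2.88 to 3.67 in SR9243 larvae. In T3 larvae it ran from 2.88 through a median of 3.25 to 8.57, the value of T3 library 8. This gene was thus at or near the lowest value in all SR9243 libraries and in nearly all T3 libraries, and anywhere between the lowest value and 10.8 in DMSO libraries. In the member with the tightest DMSO group (SD 0.154), the lowest, median and highest values were 5.64, 6.13 and 6.50 in SR9243 larvae, 5.43, 5.91 and 6.22 in T3 larvae, and 6.64, 6.86 and 7.16 in DMSO larvae. Its DMSO range overlapped neither treated range, although its differences of -0.80 for SR9243 and -0.96 for T3 were among the smallest of the set. The most highly expressed member in DMSO larvae had lowest, median and highest values of 10.5, 12.0 and 13.2 in SR9243, 9.96, 10.7 and 11.4 in T3 and 11.4, 12.8 and 13.8 in DMSO larvae, with the SR9243 and DMSO ranges largely overlapping.

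A few libraries supplied many of the extremes. DMSO library 7 was the highest of its group in 70 members (36.6%), against 25.0% of all tested genes, and DMSO library 4 in 37 (19.4%), against 9.83%. Together they were the highest in 107 members (56.0%), against 34.8% of all tested genes. DMSO library 10 was the lowest in 64 members (33.5%; all tested genes 7.86%) and DMSO library 8 in 36 (18.8%; 8.14%). Among SR9243 libraries, library 3 was the highest in 46 members (24.1%; 13.0%) and library 8 in 41 (21.5%; 14.9%). Among T3 libraries, library 1 was the lowest in 38 members (19.9%; 9.25%) and library 8 the highest in 35 (18.3%; 10.6%). Genes in which libraries tied at the extreme were not counted for that extreme.

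**Figure D4:**
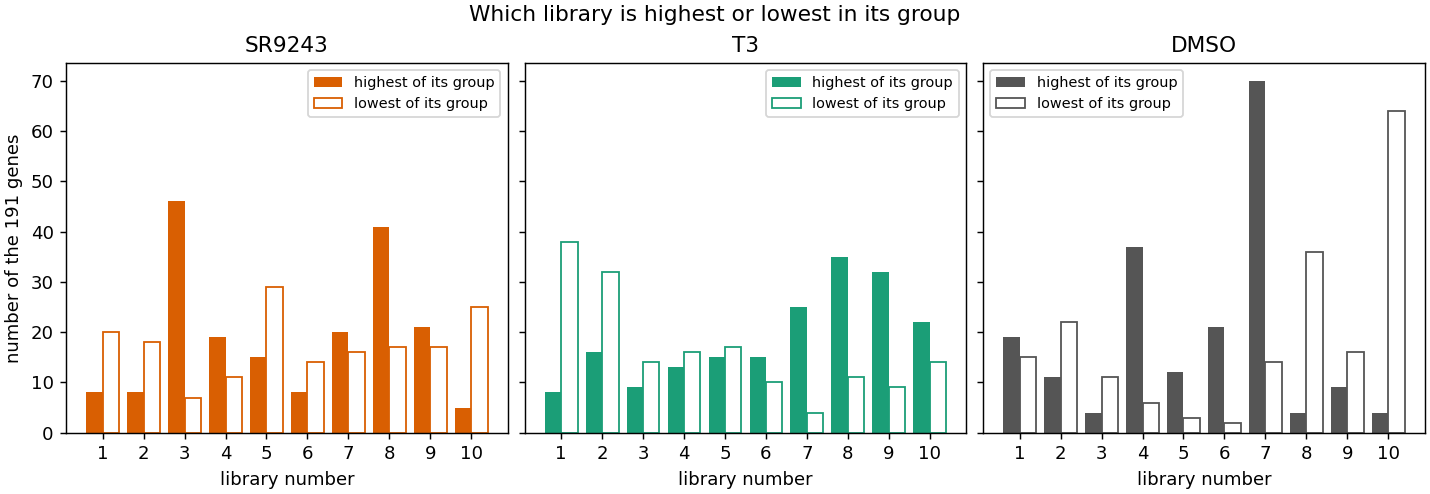
For each library of the SR9243, T3 and DMSO groups, the number of the 191 members in which it had the highest or the lowest value of its group. DMSO library 7 was the highest in 70 members and DMSO library 10 the lowest in 64.

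The members also moved together from library to library in the DMSO group, and only weakly in the treated groups. The mean correlation between pairs of members, after the group mean was removed, was 0.0748 in SR9243, 0.0539 in T3 and 0.213 in DMSO libraries, each over 10 libraries. Over all tested genes it was 0.000229, 0.00106 and 0.00129. Positive and negative pairs can cancel in a mean over all tested genes, so it is no matched baseline for genes chosen in 1 direction. Without DMSO libraries 4 and 7 the value in DMSO was 0.195, against 0.00194 over all tested genes. The rule used the DMSO libraries only through their mean. How far it favours genes raised in the same DMSO libraries was not tested. The mean correlation was 0.309 in DMSO libraries for the 80 members called lower in T3 than in SR9243, and 0.158 for the 110 not called. It reached 0.545 among the members with DMSO library 7 highest and 0.488 among those with DMSO library 4 highest, which is in part set by that choice; without both libraries these values were 0.214 and 0.221. Genes that share libraries are not independent, and the correlations are a description with no test. What these shared deviations rest on was not tested.

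Summed up per library, the mean of the 191 members was set against its average over the DMSO libraries. It was -1.28 ± 0.130 in SR9243 libraries, from -1.45 to -1.04, and -1.83 ± 0.117 in T3 libraries, from -2.03 to -1.67 (SD, n = 10 each). In DMSO libraries it ran from -0.596 in library 10 to 0.531 in library 7, with an SD of 0.36. SR9243 libraries 3 and 8 were the highest of their group, at -1.04 and -1.12, and DMSO libraries 7 and 4 of theirs. The 3 groups did not overlap, which the choice of members sets for the treated groups against DMSO. Both treated means also entered the choice, so the gap between SR9243 and T3 libraries is a description. The DMSO libraries were spread more widely than either treated group.

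**Figure D5:**
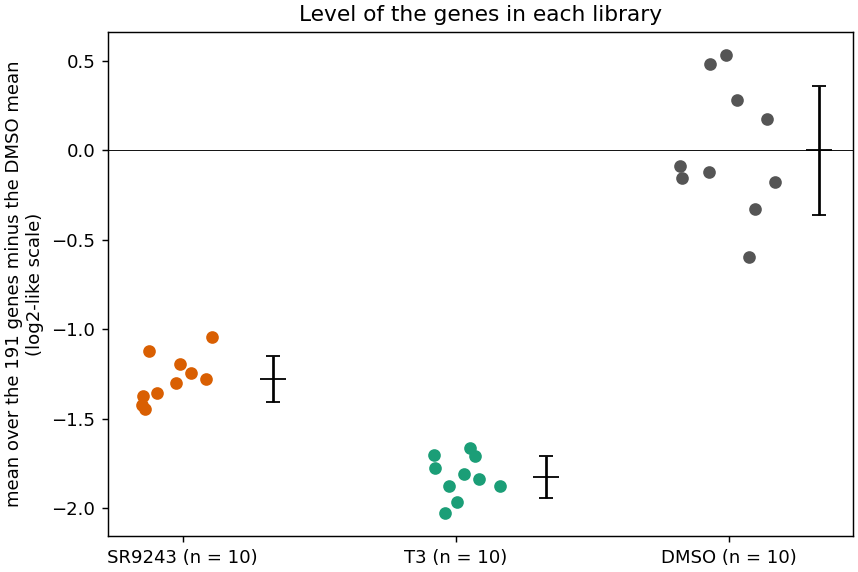
Mean of the 191 members in each library minus its average over the 10 DMSO libraries, in variance-stabilised log2 units, for SR9243, T3 and DMSO libraries, with the group mean and SD. SR9243 libraries lie between -1.45 and -1.04, T3 libraries between -2.03 and -1.67 and DMSO libraries between -0.596 and 0.531.

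Libraries 1 to 5 and 6 to 10 of each group were also taken apart. The library mean of the members was -1.29 in SR9243 libraries 1 to 5 and -1.27 in SR9243 libraries 6 to 10, and -1.90 and -1.75 in the same T3 libraries, with DMSO at 0.053 and -0.053. Every member was below the DMSO mean for both treatments in both sets of 5. The median SR9243 minus T3 difference was 0.42 in libraries 1 to 5 and 0.34 in libraries 6 to 10. At the threshold of 0.8, 164 members passed for SR9243 in libraries 1 to 5 and 155 in libraries 6 to 10, and 185 and 170 passed for T3. The same libraries had chosen the members, so these sets show how even the values were and give no independent support.

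Membership was also taken without DMSO libraries 4 and 7, the highest of their group over the members, at 0.481 and 0.531. Leaving out the highest libraries lowers the DMSO mean over the members, so some loss is built in. No other pair was left out for comparison. Without DMSO libraries 4 and 7, 143 of the 191 (74.9%) were still at or below -0.8 in both comparisons and 48 were not. In those 48 the median SR9243 difference was -0.73 without these libraries, against -0.92 with them, and the median T3 difference was -0.87, against -1.37. No member reached 0 in either comparison, although the highest SR9243 difference was then -0.02. The share called lower in T3 than in SR9243 was alike in the genes that left and in those that stayed, at 20 (41.7%) and 60 (42.0%). Whichever single library was left out, 136 members (71.2%) passed both thresholds.

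The genes most like the set were found by correlating each gene with the mean of the standardised members over the 30 libraries. The correlation of the members themselves had a median of 0.833 and ran from 0.206 to 0.965. It was at least 0.9 in 42 members (22.0%) and in 28 of the 22424 tested genes outside the set (0.125%). The correlation spans all 3 groups, and the rule chose members by their differences from DMSO, so nothing is read from these shares. The pair of outside genes with the highest values stood at 0.956 and 0.940. Their means were 8.66 and 8.50 in SR9243 larvae, 8.36 and 7.80 in T3 larvae, and 9.28 and 9.19 in DMSO larvae. Both missed the SR9243 threshold, at -0.62 and -0.70, and passed that for T3, at -0.92 and -1.40. These outside genes thus followed the mean of the members more closely than most members did.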

How the data were processed

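Poly(A) RNA was made into stranded libraries and read as pairs of 150 bases, per the labels. The submitters' processing notes name FastQC 0.11.8 and kallisto 0.46.1. The genome build, annotation and normalisation tool are each not given in the sources used here. Normalised counts after variance stabilisation, on a log2 scale, were deposited as 1 table, from 2.88 to 18.7, for 22816 genes in 30 libraries. Total counts are not in it, so the depth is unknown, no interval or floor from depth is given, and no count model was used. All columns were matched to samples by their names, with 0 left over.

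A gene was tested where at least 10 libraries exceeded the lowest value, which removed 201 and left 22615; all 191 members passed. A linear model over the 3 groups was fitted with limma 3.58.1 (R 4.3.3; eBayes, trend over the mean), two-sided, with Benjamini-Hochberg adjustment over all tested genes and a threshold of 0.05. Intervals are 95% intervals of the fit, not adjusted. The code was tested on simulated data.

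The members and the gene lists were chosen with earlier results of these data known. Pathway and cell type lists could not be applied, because no ID had a symbol. Members are given by ID by rule: the 2 with the lowest mean of both differences from DMSO, and the 2 called with the largest SR9243 minus T3 difference in each direction, of which 1 direction held 1. Members described without an ID were picked after their values were seen. Same-numbered libraries were not paired, since the labels name no pairs. Their deviations correlated above 0.1 in 7 of 30 pairs, with a range of -0.278 to 0.183. Libraries with different numbers were not compared, so this check cannot decide whether the libraries are paired. Alternatives covered the rule's threshold, scalings, filters, variance models, a rank-sum test, a replicate block, sets of 5 libraries and leaving out libraries.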

Additional observations from a re-analysis of the deposited data

Results flagged for a closer look

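SR9243 library 3 stood apart as the highest of its group in 3 of the 5 members given by ID. It was at 9.63 for ENSAOCG00000013714, 7.37 for ENSAOCG00000024738 and 12.45 for ENSAOCG00000011699, with the gap to the next SR9243 library above Dixon's 95% critical share of the group's range, which chance passes in about 1 of 20 groups. Over all 191 members, a library stood apart in this way in 14 SR9243 groups (7.33%), in 6 of them SR9243 library 3 as the highest, in 15 T3 groups (7.85%) and in 13 DMSO groups (6.81%), in 9 of them DMSO library 7 as the highest. The share over all tested genes is not given, and members that share libraries are not independent. These counts are therefore not set against 1 of 20, and nothing is read from them about the members. None of the library means over the members stood apart. Why SR9243 library 3 was high in these genes was not tested.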

How the results depend on the processing

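The number of members was 191 and moved beyond 1.5 times for 1 alternative, a threshold of -1, which left 104; a threshold of -0.7 gave 284. Group medians in place of means gave 187 (153 shared), quantile normalisation 210 (190 shared), leaving out DMSO libraries 4 and 7 gave 172 (143 shared), and leaving out each library gave 179 to 222. The 80 members called higher in SR9243 than in T3 became 51 in libraries 6 to 10 only, 70 to 93 in the other settings and 75 to 81 with each library left out. The 1 member called lower in SR9243 became 3 with library quality weights, 4 with the rank-sum test, 5 with SR9243 and T3 libraries only, 2 in libraries 6 to 10, 2 without DMSO libraries 4 and 7, and 0 to 3 with each library left out. The replicate block gave 79 (78 shared) and 1, and changed no call of a member given by ID. The shares of all tested genes called under these alternatives are not given, so nothing is read from the changes in these counts. The median SR9243 minus T3 difference ran from 0.339 to 0.395 with each library left out. Of 185 values for members given by ID, 180 kept direction and side of the threshold and none reversed. ENSAOCG00000013714 was not called in libraries 6 to 10 (1.07; adjusted p = 0.330, limma), nor ENSAOCG00000010267 in libraries 1 to 5 (-0.61; adjusted p = 0.370); their adjusted p ran from 0.000668 to 0.330 and from 0.00047 to 0.370. The causes were not tested.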
